A study of Mus musculus with 9 samples.

Results

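The receptor chains of the interleukin-6 (IL-6) cytokine family, the transcription factor STAT3 and the genes that act directly below them were followed as a set of 10 mRNAs in mouse liver. The members are fixed by gene name, with no cut on a measured value, though earlier results of these data were known when they were picked. They are the receptor genes Il6ra, Il6st, Osmr and Lifr, the signal transducer Stat3, the feedback inhibitors Socs1 and Socs3, the kinase gene Pim1, and the C/EBP transcription factor genes Cebpb and Cebpd. All 10 were found among the 21870 genes of the mRNA table. Of these, 9 reached the filter for testing, at least 0.5 FPKM (fragments per kilobase, scaled to the depth of the library) in at least 3 libraries, and Socs1 did not. A further 22 of the 54836 transcripts in the table of long non-coding RNA (lncRNA) are named as isoforms of 6 of the 10 genes.

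IL-6 binds the alpha chain encoded by Il6ra, and the complex then recruits gp130, the product of Il6st, which is the signalling chain shared by the whole family. Oncostatin M signals through gp130 joined to the product of Osmr, and leukaemia inhibitory factor (LIF) through gp130 joined to the product of Lifr. Janus kinases (JAKs) bound to these chains phosphorylate STAT3, which enters the nucleus and switches on target genes that include Socs3, whose product shuts off the same receptors. In hepatocytes STAT3 acts together with C/EBP-beta and C/EBP-delta, the products of Cebpb and Cebpd, and the pathway is known there for the acute phase response, the shift in secreted plasma proteins after injury or infection, and for its part in liver regeneration.

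Livers came from wild-type C57 BL6 mice, 8 weeks old and weighing 20 g on average. In the dmPGE2+APAP group, dmPGE2 (a stable analogue of prostaglandin E2) was injected intraperitoneally at 300 μg/kg, and acetaminophen (APAP, an analgesic that injures the liver at overdose) followed by the same route 1 h later at 500 mg/kg. The APAP group received the same APAP dose alone, and the control group received saline. The APAP interval and the sample titles are 6 h, with 3 libraries in each group. The comparison of dmPGE2+APAP with APAP asks what the pretreatment changed, and the comparisons with control ask what the overdose changed with and without it. No group received dmPGE2 without APAP, so the action of dmPGE2 by itself is not measured. The labels do not say whether each library is 1 animal, so p-values measure the spread between these libraries.

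The mRNA table gave 9979 to 10321 genes at 1 FPKM or more in a library, with sums of 371958.2 to 393937.6 FPKM. The number of reads behind a value is unknown, so no counting error is given. Of 6 hepatocyte markers 5 were in the table, and they summed to 38000 to 42400 FPKM in dmPGE2+APAP livers, 37600 to 43900 in APAP livers and 30700 to 34400 in control livers, above the sum of every other marker list. Control library 3 stood apart: 4.86% of tested genes differed in it by over 2-fold from the mean of the other 2 controls, against 1.12% to 2.26% for each other library within its group. Calls that it makes or breaks are given with and without it, except for cell type markers, whose calls are from all libraries. In bulk tissue, fewer cells of a type and less RNA per cell cannot be told apart.

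The start regions of these genes are shown because they are where STAT and C/EBP proteins would act. RefSeq windows on GRCm38.p6, 250 bases before to 50 after an annotated start, matched 9 of the 10 genes in 11 windows, Cebpd being the exception. Both strands were searched for TTCNNNGAA (STAT), TTGCNNAA (C/EBP), TGACGTCA (cAMP response element) and TGANTCA (AP-1). Of 32817 promoter windows of the same length, 8.29% hold the STAT letters, 10.8% the C/EBP letters, 1.79% the cAMP response element and 7.81% the AP-1 letters. Among the 11 windows there were 2 matches, in capitals below: TTCTTAGAA of the STAT motif in Socs3, at base 97 of the window and -154 from the start, and TGATTCA of the AP-1 motif in Osmr, at base 254 and 4 bases after the start. Cebpb, the most abundant C/EBP mRNA in treated livers, and Il6ra, whose start lies inside an antisense gene described further on, are shown beside them and hold none of the 4 motifs. The windows are chr11:117969317-117969616 for Socs3, chr15:6874264-6874563 for Osmr and chr3:89913147-89913446 for Il6ra, all on the minus strand, and chr2:167688665-167688964 on the plus strand for Cebpb. The Socs3 and Osmr windows lie wholly inside the gene spans given further on. Their RefSeq starts are thus downstream of where those spans begin on the minus strand.
Socs3: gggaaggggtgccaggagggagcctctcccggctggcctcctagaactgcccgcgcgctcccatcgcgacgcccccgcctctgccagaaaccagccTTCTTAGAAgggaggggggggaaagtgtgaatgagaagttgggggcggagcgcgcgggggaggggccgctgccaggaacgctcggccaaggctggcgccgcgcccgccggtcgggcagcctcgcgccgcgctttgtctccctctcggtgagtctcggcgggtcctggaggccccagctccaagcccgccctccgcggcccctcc
Osmr: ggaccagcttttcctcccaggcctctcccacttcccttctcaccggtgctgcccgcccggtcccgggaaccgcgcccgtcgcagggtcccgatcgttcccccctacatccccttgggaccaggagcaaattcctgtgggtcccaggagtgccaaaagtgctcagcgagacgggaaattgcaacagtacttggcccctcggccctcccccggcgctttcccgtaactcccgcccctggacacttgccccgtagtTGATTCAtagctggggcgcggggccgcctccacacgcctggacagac
Il6ra: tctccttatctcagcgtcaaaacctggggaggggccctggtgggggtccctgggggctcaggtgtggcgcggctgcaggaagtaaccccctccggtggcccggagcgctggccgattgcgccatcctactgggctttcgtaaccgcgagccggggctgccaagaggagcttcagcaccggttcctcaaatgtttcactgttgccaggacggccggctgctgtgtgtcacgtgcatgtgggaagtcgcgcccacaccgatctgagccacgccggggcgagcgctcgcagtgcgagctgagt
Cebpb: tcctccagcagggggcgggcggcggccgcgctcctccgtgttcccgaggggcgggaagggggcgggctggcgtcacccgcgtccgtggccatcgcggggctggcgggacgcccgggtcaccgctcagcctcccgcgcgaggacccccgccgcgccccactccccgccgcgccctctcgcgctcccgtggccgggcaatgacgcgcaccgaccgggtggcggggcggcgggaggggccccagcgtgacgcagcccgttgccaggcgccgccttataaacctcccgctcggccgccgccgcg

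Fold changes come from limma on log2 values of rescaled FPKM with 0.1 added, and a gene was called at a Benjamini-Hochberg adjusted p under 0.05 over all 11557 genes tested. Rescaling moved the log2 difference from control by 0.139 for APAP and 0.140 for dmPGE2+APAP, and changes are relative to these shifts. After it the median log2 fold change of all genes was 0.00 in each comparison. In APAP livers 4 of the 9 tested genes rose against control (Osmr, Socs3, Cebpb and Cebpd) and none fell, where 20.9% of all genes were called, 11.8% higher and 9.08% lower. In dmPGE2+APAP livers 4 of 9 rose against control (Il6ra, Osmr, Cebpb and Cebpd) and none fell, where 16.3% of all genes were called, 8.71% higher and 7.57% lower. Between dmPGE2+APAP and APAP livers limma called 0 of the 9, and 0 of the 9 had an unadjusted p under 0.05, where 0% of all genes were called and 1074 had an unadjusted p under 0.05. The median log2 fold change of the 9 was -0.10 for dmPGE2+APAP over APAP, 0.51 for APAP over control and 0.71 for dmPGE2+APAP over control. The comparisons with control share the same 3 control libraries. An exact permutation of 3 libraries against 3 has a smallest p of 0.1, and limma calls are possible here because it borrows the spread of other genes.

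**Figure D1:**
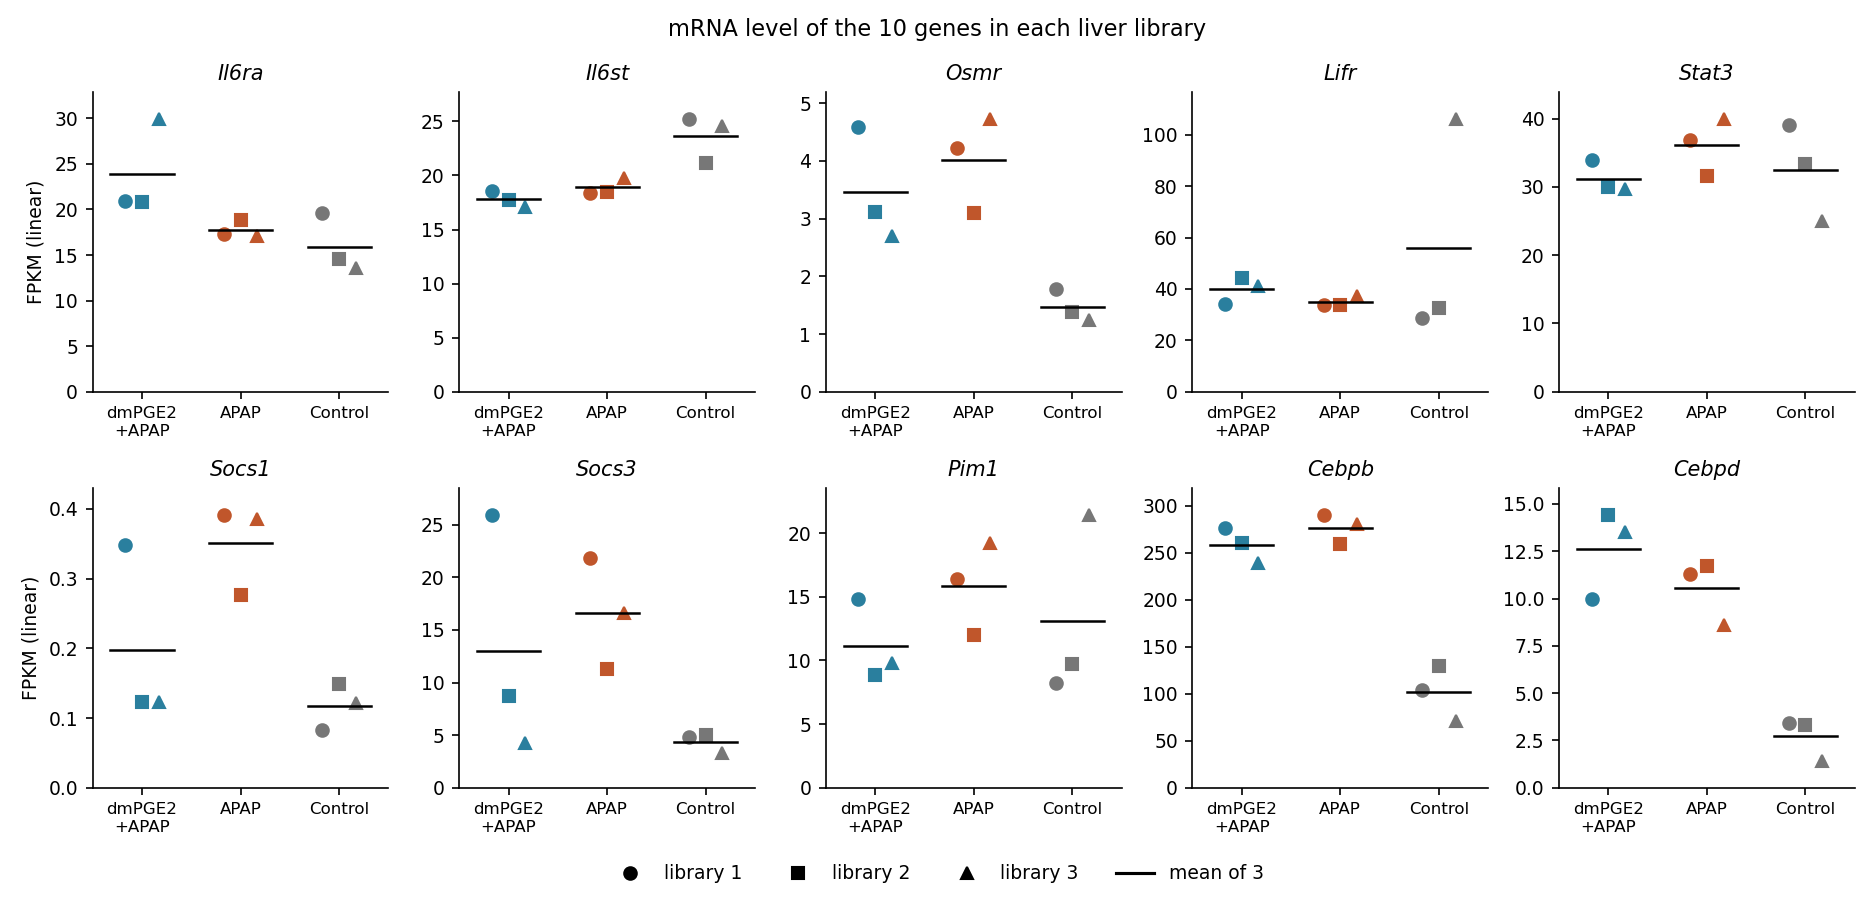
Deposited FPKM (linear axes from 0) of the 10 genes in each library, with dmPGE2+APAP left, APAP in the middle and Control right in each panel; symbols mark the library number and bars the mean of 3. Osmr, Cebpb and Cebpd are above every control in all 6 treated libraries, while the Lifr and Pim1 panels have 1 high control, library 3, at 106 FPKM for Lifr and 21.4 for Pim1.

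The receptor genes went different ways. Osmr, the chain that makes gp130 responsive to oncostatin M (ENSMUSG00000022146, chromosome 15, from 6813577 to 6874969 on the minus strand), was at 4.58, 3.11 and 2.69 FPKM in dmPGE2+APAP livers, at 4.22, 3.1 and 4.72 in APAP livers and at 1.78, 1.39 and 1.24 in control livers. Every treated library was above every control, and the treated groups overlapped. Osmr rose 2.45-fold in dmPGE2+APAP livers over control (log2 1.29, SE 0.236, limma adjusted p = 0.00758) and 2.86-fold in APAP livers over control (log2 1.52, SE 0.236, adjusted p = 0.00298). Without control library 3 the log2 values were 1.17 in dmPGE2+APAP livers (adjusted p = 0.021) and 1.39 in APAP livers (adjusted p = 0.00863). The difference between dmPGE2+APAP and APAP was -0.22 on the log2 scale, with a 95% interval of -0.76 to 0.31.

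Il6ra, the IL-6 binding chain (ENSMUSG00000027947, chromosome 3, from 89864059 to 89913196 on the minus strand), was at 20.9, 20.8 and 29.9 FPKM in dmPGE2+APAP livers, at 17.3, 18.9 and 17.1 in APAP livers and at 19.6, 14.6 and 13.6 in control livers. All 3 dmPGE2+APAP libraries lay above every library of the other groups, library 3 by the widest margin, and APAP overlapped control. The rise over control was 1.64-fold in dmPGE2+APAP livers (log2 0.71, SE 0.182, limma adjusted p = 0.0298). This call was lost in 5 of the alternative fits: with the 2 groups alone (adjusted p = 0.0664) and without dmPGE2+APAP library 1 (0.0514), dmPGE2+APAP library 3 (0.0853), control library 2 (0.0859) or control library 3 (0.0698). Over APAP the fitted difference was log2 0.40 (SE 0.182, 95% interval -0.01 to 0.82, unadjusted p = 0.0538, adjusted p = 0.544), and for APAP over control it was log2 0.31 (adjusted p = 0.258).

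Il6ra was the single member whose dmPGE2+APAP and APAP libraries did not overlap. Among all genes 16% did not overlap in that comparison, 7.11% with dmPGE2+APAP higher and 8.93% with it lower. In APAP against control, 5 of the 9 did not overlap (Osmr, Socs3, Cebpb and Cebpd higher, Il6st lower), where 43.6% of all genes did not overlap, 12.9% higher and 30.6% lower. For dmPGE2+APAP against control it was again 5 of 9 (Il6ra, Osmr, Cebpb and Cebpd higher, Il6st lower), where 42.4% of all genes did not overlap, 11.3% higher and 31.1% lower. These are counts on deposited FPKM, before rescaling.

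The antisense gene Gm42809, from 89912916 to 89914053 on chromosome 3, runs across the start of Il6ra on the other strand. Its transcript Gm42809-201 was at 0.404, 0.197 and 0.412 FPKM in dmPGE2+APAP livers, at 0.136, 0.104 and 0.0784 in APAP livers and at 0.031, 0.0071 and 0.0904 in control livers. As for Il6ra, the dmPGE2+APAP libraries were above all others. The controls were all below the lncRNA filter of 0.1 FPKM in at least 3 libraries, so the transcript was tested only because treated libraries passed it. Gm42809-201 rose 3.18-fold in dmPGE2+APAP livers over control (log2 1.67, SE 0.342, limma adjusted p = 0.0451). This fold is compressed by the added 0.1, since the means were 0.338 FPKM in dmPGE2+APAP livers and 0.0428 in control livers, and the call was lost without control library 3 (log2 1.88, adjusted p = 0.0715). Over APAP the difference was log2 1.07 (SE 0.342, unadjusted p = 0.0111, adjusted p = 0.594). The library protocol keeps the strand, but whether the quantification used it is not given in the sources used here, so reads of the 2 genes may have been shared over their overlap.

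Il6st, which encodes gp130 (ENSMUSG00000021756, chromosome 13, from 112464070 to 112510086 on the plus strand), was at 18.6, 17.7 and 17.1 FPKM in dmPGE2+APAP livers, at 18.4, 18.5 and 19.8 in APAP livers and at 25.2, 21.2 and 24.6 in control livers. All 6 treated libraries were below all controls on deposited FPKM. After rescaling the differences from control were log2 -0.27 in dmPGE2+APAP livers (95% interval -0.47 to -0.06, limma adjusted p = 0.081) and -0.18 in APAP livers (95% interval -0.39 to 0.03, adjusted p = 0.191). With no rescaling both passed, at log2 -0.41 in dmPGE2+APAP livers (adjusted p = 0.0151) and -0.32 in APAP livers (adjusted p = 0.0315), so a call of Il6st depends on the scaling.

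Lifr, the LIF-binding partner of gp130 (ENSMUSG00000054263, chromosome 15, from 7090614 to 7197489 on the plus strand), was at 34.1, 44.3 and 41.3 FPKM in dmPGE2+APAP livers, at 33.9, 33.9 and 37.4 in APAP livers and at 28.8, 32.4 and 106 in control livers. Control library 3 was far above the other 8 libraries, while the other 2 controls were the lowest of all. With every library in the fit, the log2 differences from control were -0.08 for dmPGE2+APAP (limma adjusted p = 0.905) and -0.26 for APAP (adjusted p = 0.675). Without control library 3 they turned to 0.49 for dmPGE2+APAP (SE 0.112, adjusted p = 0.0235) and 0.32 for APAP (SE 0.112, adjusted p = 0.0845).

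Per length, Lifr was the most abundant of the 4 receptor mRNAs and Osmr the least abundant of them in all 9 libraries. The ratio of Osmr to Il6st FPKM was 0.193 ± 0.0469 in dmPGE2+APAP livers, 0.212 ± 0.0381 in APAP livers and 0.0622 ± 0.0105 in control livers (mean ± SD, n = 3 each). The ratio of Il6ra to Il6st was 1.12, 1.17 and 1.75 in dmPGE2+APAP livers, 0.941, 1.02 and 0.86 in APAP livers and 0.78, 0.69 and 0.553 in control livers. In this ratio, which no rescaling affects, the 3 groups did not overlap. How often the ratios of other gene pairs separate in this way was not tested.

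Stat3 itself (ENSMUSG00000004040, chromosome 11, minus strand, from 100881136 to 100939540 in the mRNA table) showed no call in any comparison. It was at 33.9, 30 and 29.7 FPKM in dmPGE2+APAP livers, at 36.8, 31.6 and 39.9 in APAP livers and at 39.1, 33.3 and 25 in control livers, and each pair of groups overlapped. The log2 differences were -0.21 for dmPGE2+APAP over APAP (95% interval -0.60 to 0.19), 0.31 for APAP over control (-0.08 to 0.70) and 0.10 for dmPGE2+APAP over control (-0.29 to 0.49). The last turned to -0.04 with no rescaling and to -0.10 without control library 3. mRNA level does not report the phosphorylation that activates the protein, which was not measured. The table's span for Stat3 starts before the GENCODE start of 100885098 and overlaps the neighbouring Stat5a, on the opposite strand.

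Socs3, the STAT3-induced inhibitor of gp130 receptors (ENSMUSG00000053113, chromosome 11, from 117966079 to 117970047 on the minus strand), varied most between libraries of 1 group. It was at 25.9, 8.75 and 4.21 FPKM in dmPGE2+APAP livers, at 21.8, 11.3 and 16.6 in APAP livers and at 4.79, 5.02 and 3.31 in control livers. The highest library of the study was dmPGE2+APAP library 1, and dmPGE2+APAP library 3 fell within the control range. In APAP livers, which did not overlap with control, Socs3 rose 4.02-fold (log2 2.01, SE 0.559, limma adjusted p = 0.0342). The call was lost with no filter on low genes and without dmPGE2+APAP library 2 (adjusted p = 0.0511 in each), without APAP library 1 (0.105) or 3 (0.0922), and without control library 1 (0.0676), 2 (0.0662) or 3 (0.0816). In dmPGE2+APAP livers the difference from control was log2 1.32 (95% interval 0.05 to 2.58, adjusted p = 0.144), and it was 0.61 without dmPGE2+APAP library 1 (adjusted p = 0.326) and 1.92 without dmPGE2+APAP library 3 (adjusted p = 0.0388). The difference between dmPGE2+APAP and APAP was -0.69, with an interval of -1.96 to 0.57, and it was -1.40 without dmPGE2+APAP library 1 (adjusted p = 0.184) and -0.09 without dmPGE2+APAP library 3 (adjusted p = 0.992).

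Socs1, which binds and blocks JAKs directly (ENSMUSG00000038037, chromosome 16, from 10782240 to 10785536 on the minus strand), was below the filter at 0.349, 0.123 and 0.123 FPKM in dmPGE2+APAP livers, 0.391, 0.276 and 0.385 in APAP livers and 0.0825, 0.149 and 0.121 in control livers. APAP libraries were above all controls, and dmPGE2+APAP library 1 was close to them while the other 2 were within the control range. A fit with no filter gave log2 1.14 for APAP over control (adjusted p = 0.0351), 0.47 for dmPGE2+APAP over control (0.383) and -0.67 for dmPGE2+APAP over APAP (0.545), values that the added 0.1 makes too small.

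Pim1, a growth-promoting kinase gene induced by STAT proteins (ENSMUSG00000024014, chromosome 17, from 29490753 to 29496112 on the plus strand), was at 14.8, 8.82 and 9.81 FPKM in dmPGE2+APAP livers, at 16.4, 12 and 19.2 in APAP livers and at 8.24, 9.72 and 21.4 in control livers. The highest value was again that of control library 3. With all libraries the log2 difference of APAP from control was 0.51 (limma adjusted p = 0.318), and without control library 3 it was 0.91 (adjusted p = 0.0419). For dmPGE2+APAP over control it was 0.00 with all libraries and 0.39 without control library 3 (adjusted p = 0.339).

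**Figure D2:**
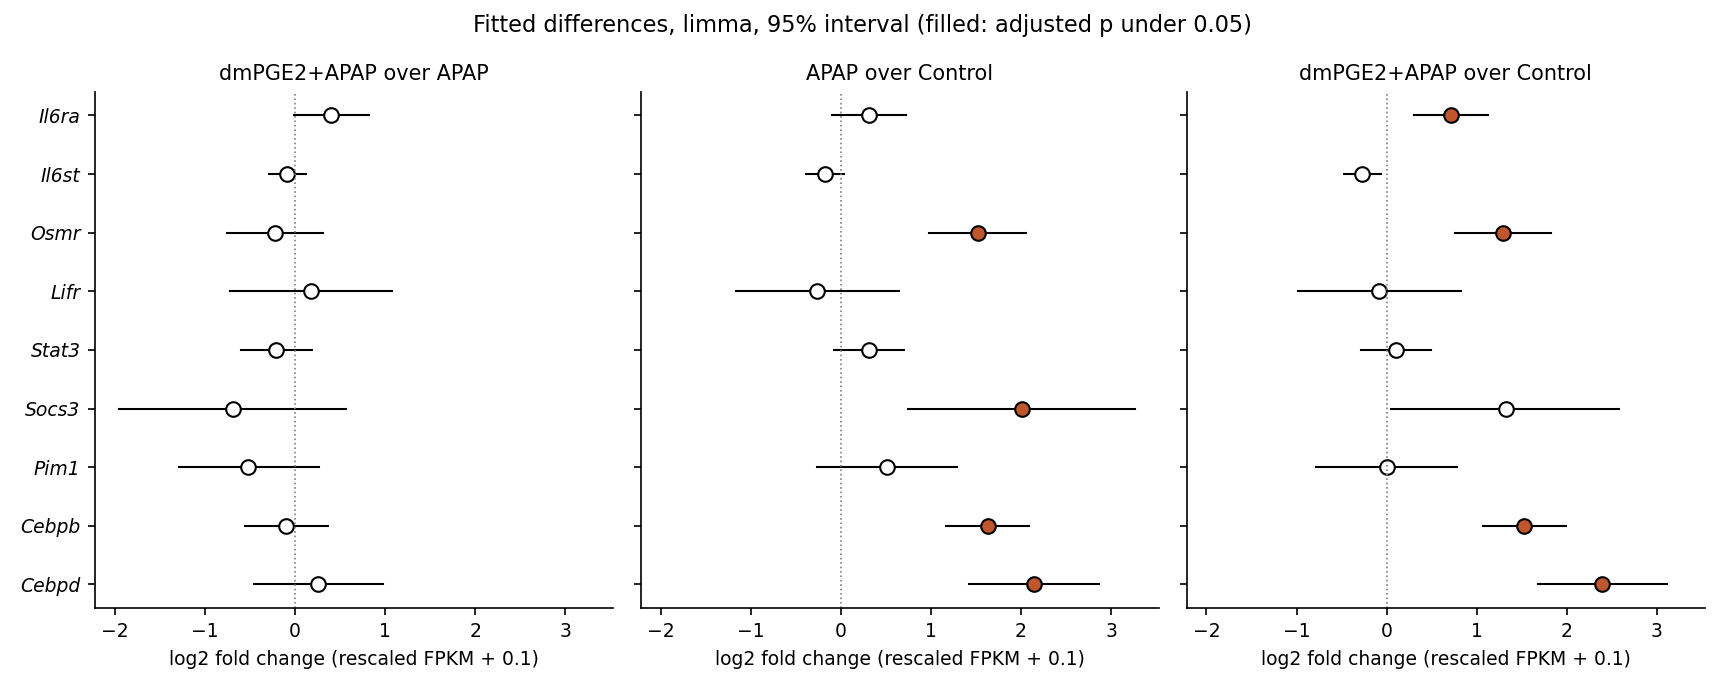
Log2 fold changes of the 9 tested genes in the 3 comparisons, from limma on rescaled FPKM with 0.1 added; lines are 95% intervals and filled points have an adjusted p under 0.05. No point is filled for dmPGE2+APAP over APAP, and 4 are filled in each comparison with Control, of which Osmr, Cebpb and Cebpd are filled in both.

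The C/EBP genes showed the clearest separation of treated from control livers. Cebpb, an IL-6-responsive activator of acute phase genes (ENSMUSG00000056501, chromosome 2, from 167688915 to 167690418 on the plus strand), was at 276, 261 and 239 FPKM in dmPGE2+APAP livers, at 290, 259 and 281 in APAP livers and at 104, 130 and 70.9 in control livers. It rose 2.89-fold over control in dmPGE2+APAP livers (log2 1.53, SE 0.203, limma adjusted p = 0.00169) and 3.09-fold in APAP livers (log2 1.63, SE 0.203, adjusted p = 0.00112). Without control library 3, the lowest control, the log2 values were 1.27 in dmPGE2+APAP livers and 1.37 in APAP livers, and both remained called. The treated groups overlapped and differed by log2 -0.10 (95% interval -0.56 to 0.36).

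Cebpd, the other acute phase C/EBP (ENSMUSG00000071637, chromosome 16, from 15887286 to 15891031 on the plus strand), was at 9.99, 14.4 and 13.5 FPKM in dmPGE2+APAP livers, at 11.3, 11.7 and 8.62 in APAP livers and at 3.43, 3.3 and 1.41 in control livers. All treated libraries were more than 2-fold above all controls. Cebpd rose 5.25-fold over control in dmPGE2+APAP livers (log2 2.39, SE 0.317, limma adjusted p = 0.00166) and 4.41-fold in APAP livers (log2 2.14, SE 0.317, adjusted p = 0.00234). Leaving out control library 3 gave log2 1.98 in dmPGE2+APAP livers and 1.72 in APAP livers, both still called. Between the treated groups the difference was log2 0.25, with an interval of -0.46 to 0.97.

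Cebpb lies in an overlap with Tmem189, a gene on the opposite strand, which moved in the same direction. Tmem189 was at 20 ± 1.29 FPKM in dmPGE2+APAP livers, 21.9 ± 2.55 in APAP livers and 10.9 ± 2.92 in control livers (mean ± SD, n = 3 each), and rose over control 2.07-fold in dmPGE2+APAP livers (limma adjusted p = 0.00923) and 2.25-fold in APAP livers (adjusted p = 0.00445). The end of Cebpd overlaps Spidr, also on the opposite strand, which was at 1.06 ± 0.251 FPKM in dmPGE2+APAP livers, 1.24 ± 0.296 in APAP livers and 0.998 ± 0.202 in control livers and was not called. Reads in these overlaps could have been assigned to either gene, and how far this touches Cebpb was not tested.

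Cebpa, the C/EBP of the resting hepatocyte, went the other way. It was at 101, 109 and 111 FPKM in dmPGE2+APAP livers, at 105, 101 and 118 in APAP livers and at 174, 166 and 189 in control livers, with no overlap between treated and control. It fell to 0.669 of control in dmPGE2+APAP livers (log2 -0.58, limma adjusted p = 0.00347) and to 0.675 in APAP livers (log2 -0.57, adjusted p = 0.00303). The ratio of Cebpb to Cebpa was 2.73, 2.4 and 2.14 in dmPGE2+APAP livers, 2.76, 2.56 and 2.38 in APAP livers and 0.595, 0.78 and 0.376 in control livers. Cebpb thus exceeded Cebpa per length in all 6 treated libraries and Cebpa exceeded Cebpb in all 3 controls.

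Of the other C/EBP relatives, Cebpe, known from granulocytes, was at 1.08 ± 0.182 FPKM in dmPGE2+APAP livers, 0.869 ± 0.252 in APAP livers and 2.03 ± 0.611 in control livers. It fell in APAP livers (log2 -1.0, limma adjusted p = 0.0262, and 0.0697 without control library 3) and was not called in dmPGE2+APAP livers (log2 -0.69, adjusted p = 0.106). Ddit3, the stress-induced partner CHOP that can block C/EBP binding, was at 10.6 ± 2.2 FPKM in dmPGE2+APAP livers, 7.75 ± 0.758 in APAP livers and 1.38 ± 0.0706 in control livers and rose over control 7.77-fold in dmPGE2+APAP livers (limma adjusted p = 1.88e-05) and 5.78-fold in APAP livers (adjusted p = 4.27e-05). Cebpg, which pairs with other C/EBPs, was not called, and its control values of 2.44, 2.83 and 12.4 FPKM again set control library 3 apart. Without that library Cebpg was higher by log2 0.63 in dmPGE2+APAP livers (adjusted p = 0.0304) and 0.62 in APAP livers (adjusted p = 0.0266).

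**Figure D3:**
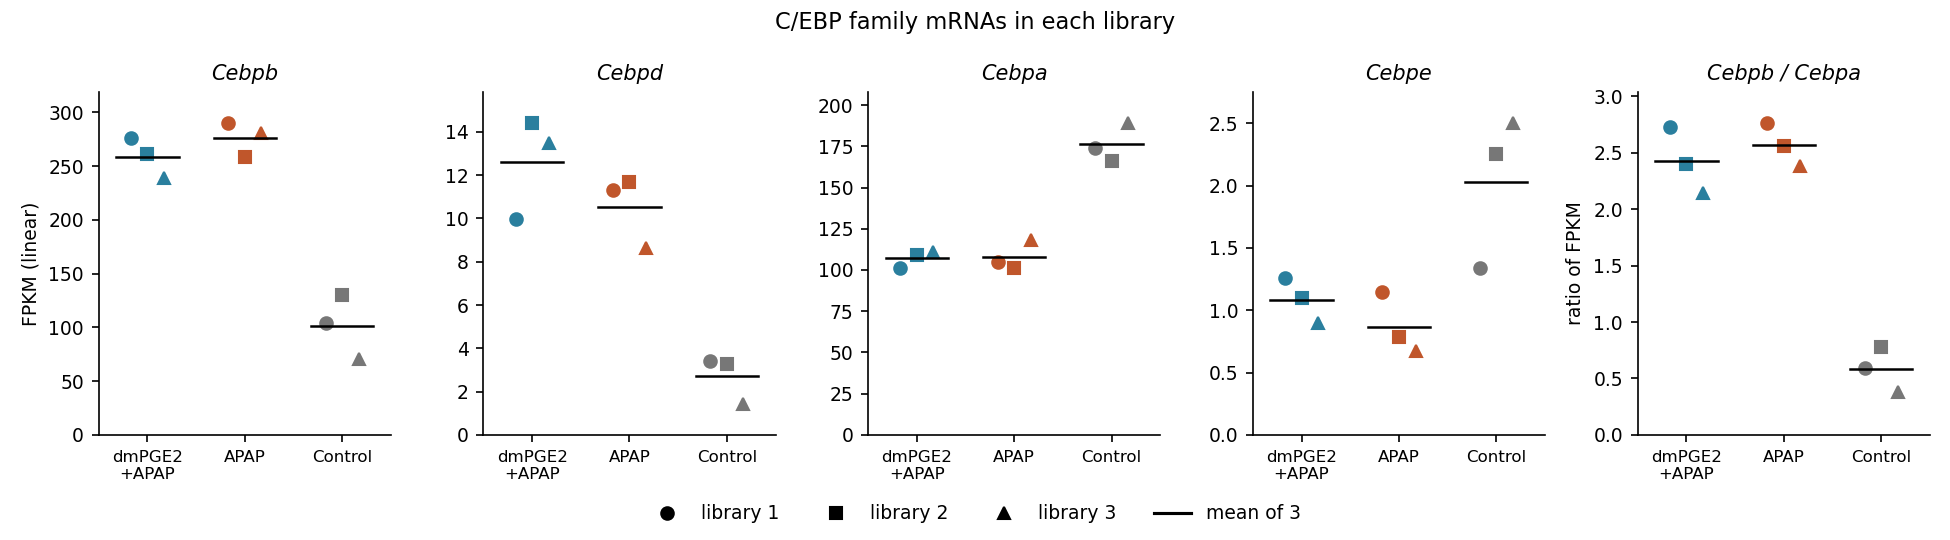
FPKM (linear axes from 0) of Cebpb, Cebpd, Cebpa and Cebpe and the ratio of Cebpb to Cebpa in each library, with dmPGE2+APAP left, APAP in the middle and Control right; symbols mark the library number and bars the mean of 3. The ratio is between 2.14 and 2.76 in the 6 treated libraries and between 0.376 and 0.78 in the controls.

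Around these 10 genes, 80 others in 10 lists were examined and 69 passed the filter. In dmPGE2+APAP livers 12 rose and 5 fell against control, where 16.3% of all genes were called. In APAP livers 14 rose and 8 fell against control, where 20.9% of all genes were called, and between dmPGE2+APAP and APAP livers limma called 0. In this last comparison 5 of the 69 had an unadjusted p under 0.05, as did 1074 of all 11557 genes. The 5 were Socs2, Ddit3 and Hamp with positive log2 differences, and Clcf1 and the SOCS relative Socs5 with negative ones. These 5 were singled out after their values were seen. The lists are described by their counts and medians alone.

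Of 9 ligand genes, 6 were below the filter. Il6 was at 0.0265 ± 0.0232 FPKM in dmPGE2+APAP livers, 0.0541 ± 0.0648 in APAP livers and 0.00841 ± 0.0146 in control livers, and was listed at 0 in at least 1 library of each group. Osm, the oncostatin M gene, was at 0.0637, 0.0377 and 0.0216 FPKM in dmPGE2+APAP livers, at 0.204, 0.0843 and 0.166 in APAP livers and at 0.0262, 0.013 and 0.0134 in control livers. For Osm the APAP libraries were above all others, but with no read counts such low values carry no error of their own. Lif was at 0.011 ± 0.0134 FPKM in dmPGE2+APAP livers, 0.0408 ± 0.0223 in APAP livers and 0.015 ± 0.0152 in control livers, and Il11 at 0.0177 ± 0.0154 FPKM in dmPGE2+APAP livers, 0.111 ± 0.0814 in APAP livers and 0.00772 ± 0.0134 in control livers. These 4 genes were below the filter and not tested. Of the 3 ligand genes tested Clcf1, a gp130 ligand that acts through LIFR and the ciliary neurotrophic factor receptor, was the one called against control. It was at 0.492, 0.726 and 0.671 FPKM in dmPGE2+APAP livers, at 0.812, 0.936 and 1.05 in APAP livers and at 0.37, 0.295 and 0.318 in control livers. All controls were below the 0.5 FPKM of the filter, so Clcf1 was tested only because treated libraries passed it. The 3 groups did not overlap, and Clcf1 rose over control 1.83-fold in dmPGE2+APAP livers (limma adjusted p = 0.0159) and 2.60-fold in APAP livers (adjusted p = 0.00169), while dmPGE2+APAP over APAP was log2 -0.51 (unadjusted p = 0.0247, adjusted p = 0.472).

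Neutrophils are a known source of oncostatin M. The 9 neutrophil markers summed to 7.43, 11.8 and 5.6 FPKM in dmPGE2+APAP livers, 43.2, 10.6 and 11.2 in APAP livers and 7.14, 3.85 and 2.78 in control livers. The high sum was that of APAP library 1 alone, and the sums of the other APAP libraries lay within the dmPGE2+APAP range. None of the 9 was at 0 in every library, and of 6 tested 1 rose over control in dmPGE2+APAP livers and 4 in APAP livers. Among all genes, 8.71% rose over control in dmPGE2+APAP livers and 11.8% in APAP livers. For dmPGE2+APAP over APAP, 0 of the 6 tested neutrophil markers were called and 3 had an unadjusted limma p under 0.05 (median log2 -1.08). Of all 11557 genes, 1074 had such a p. The 7 Kupffer cell markers summed to 101 to 105 FPKM in dmPGE2+APAP livers, 55.2 to 95.1 in APAP livers and 94.7 to 109 in control livers, and none of the 7 was called. For dmPGE2+APAP over APAP, 3 of the 7 had an unadjusted limma p under 0.05 (median log2 0.39). Monocyte markers summed to 5.28 to 5.85 FPKM in dmPGE2+APAP livers, 4.75 to 7.55 in APAP livers and 3.69 to 7.28 in control livers. The 8 lymphocyte markers, all below the filter, summed to 1.05 to 1.3 FPKM in dmPGE2+APAP livers, 0.761 to 1.35 in APAP livers and 2.03 to 2.32 in control livers. Sinusoidal endothelial markers summed to 99.6 to 104 FPKM in dmPGE2+APAP livers, 76.3 to 106 in APAP livers and 84.7 to 100 in control livers. Of these 7, 1 rose and 1 fell over control in each treated group. Stellate cell markers summed to 143 to 157 FPKM in dmPGE2+APAP livers, 138 to 148 in APAP livers and 95.6 to 133 in control livers, and 2 of 7 rose over control in each treated group. Cholangiocyte markers summed to 20.9 to 32.4 FPKM in dmPGE2+APAP livers, 24.2 to 44.6 in APAP livers and 13.7 to 30.2 in control livers, and 1 of 4 tested rose over control in each treated group. The part of these cells in the levels of Osm, Socs3 or Osmr was not tested.

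Of 4 JAK genes 2 rose in APAP livers over control (median log2 0.25) and 0 were called in dmPGE2+APAP livers (median 0.11). Jak1, which binds gp130, was at 38.3 ± 1.74 FPKM in dmPGE2+APAP livers, 41.4 ± 3.66 in APAP livers and 34.9 ± 1.11 in control livers, a rise of 1.30-fold in APAP livers (limma adjusted p = 0.0192). Jak2, a kinase that also serves these receptors, was at 5.52 ± 0.988 FPKM in dmPGE2+APAP livers, 6.48 ± 0.0864 in APAP livers and 5.12 ± 0.432 in control livers and rose 1.39-fold in APAP livers (adjusted p = 0.0337, and 0.0796 without control library 3). In dmPGE2+APAP livers the log2 differences from control were 0.27 for Jak1 (adjusted p = 0.0761) and 0.23 for Jak2 (adjusted p = 0.268). For dmPGE2+APAP over APAP they were -0.11 for Jak1 and -0.24 for Jak2, and neither was called. Against control, 8.71% of all genes rose and 7.57% fell in dmPGE2+APAP livers, and 11.8% rose and 9.08% fell in APAP livers. Of 5 other STAT genes tested none rose and 2 fell in each treated group. Stat6, which carries the IL-4 signal, was at 12.4 ± 0.448 FPKM in dmPGE2+APAP livers, 12.8 ± 0.28 in APAP livers and 18.8 ± 0.105 in control livers, a fall to 0.730 of control in dmPGE2+APAP livers and 0.753 in APAP livers. Stat5b, the growth hormone signal transducer, was at 11.4 ± 1.14 FPKM in dmPGE2+APAP livers, 9.95 ± 1.09 in APAP livers and 10.4 ± 2.04 in control livers and was not called.

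Other inhibitors split. Among 6 SOCS-family relatives, Cish, a target of growth hormone signalling, was at 0.764 ± 0.0744 FPKM in dmPGE2+APAP livers, 0.797 ± 0.131 in APAP livers and 2.23 ± 0.311 in control livers and fell in dmPGE2+APAP livers (log2 -1.30, limma adjusted p = 0.00164) and in APAP livers (log2 -1.25, adjusted p = 0.00166). Socs2, which restrains growth hormone signalling, was at 2.11, 7.47 and 6.11 FPKM in dmPGE2+APAP livers, at 2.26, 1.76 and 2.82 in APAP livers and at 7.65, 4.9 and 7.71 in control livers. It fell in APAP livers (log2 -1.39, adjusted p = 0.0415, and 0.0895 without control library 3) and was not called in dmPGE2+APAP livers (log2 -0.38, adjusted p = 0.57), where library 1 was at the APAP level and the other 2 at the control level. The difference between dmPGE2+APAP and APAP was log2 1.01 (unadjusted p = 0.0353, adjusted p = 0.503). Socs7 rose over control in dmPGE2+APAP livers (log2 0.79, adjusted p = 0.00433) and APAP livers (log2 0.55, adjusted p = 0.0158). Of 8 phosphatase and PIAS genes, Ptpn2, which dephosphorylates JAKs and STATs, was at 6.8 ± 0.418 FPKM in dmPGE2+APAP livers, 7.12 ± 1.6 in APAP livers and 4.36 ± 0.621 in control livers, a rise of 1.71-fold in dmPGE2+APAP livers and 1.76-fold in APAP livers. Ptpn1, another phosphatase gene, rose in APAP livers (log2 0.40, adjusted p = 0.0471, and 0.104 without control library 3), and none of the 8 fell.

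The kinase Pim3 moved where Pim1 was not called. Pim3 was at 149, 140 and 130 FPKM in dmPGE2+APAP livers, at 131, 128 and 120 in APAP livers and at 29.3, 47.5 and 35.1 in control livers. It rose over control 4.20-fold in dmPGE2+APAP livers (log2 2.07, SE 0.162, limma adjusted p = 1.49e-04) and 3.79-fold in APAP livers (log2 1.92, SE 0.162, adjusted p = 1.70e-04).

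**Figure D4:**
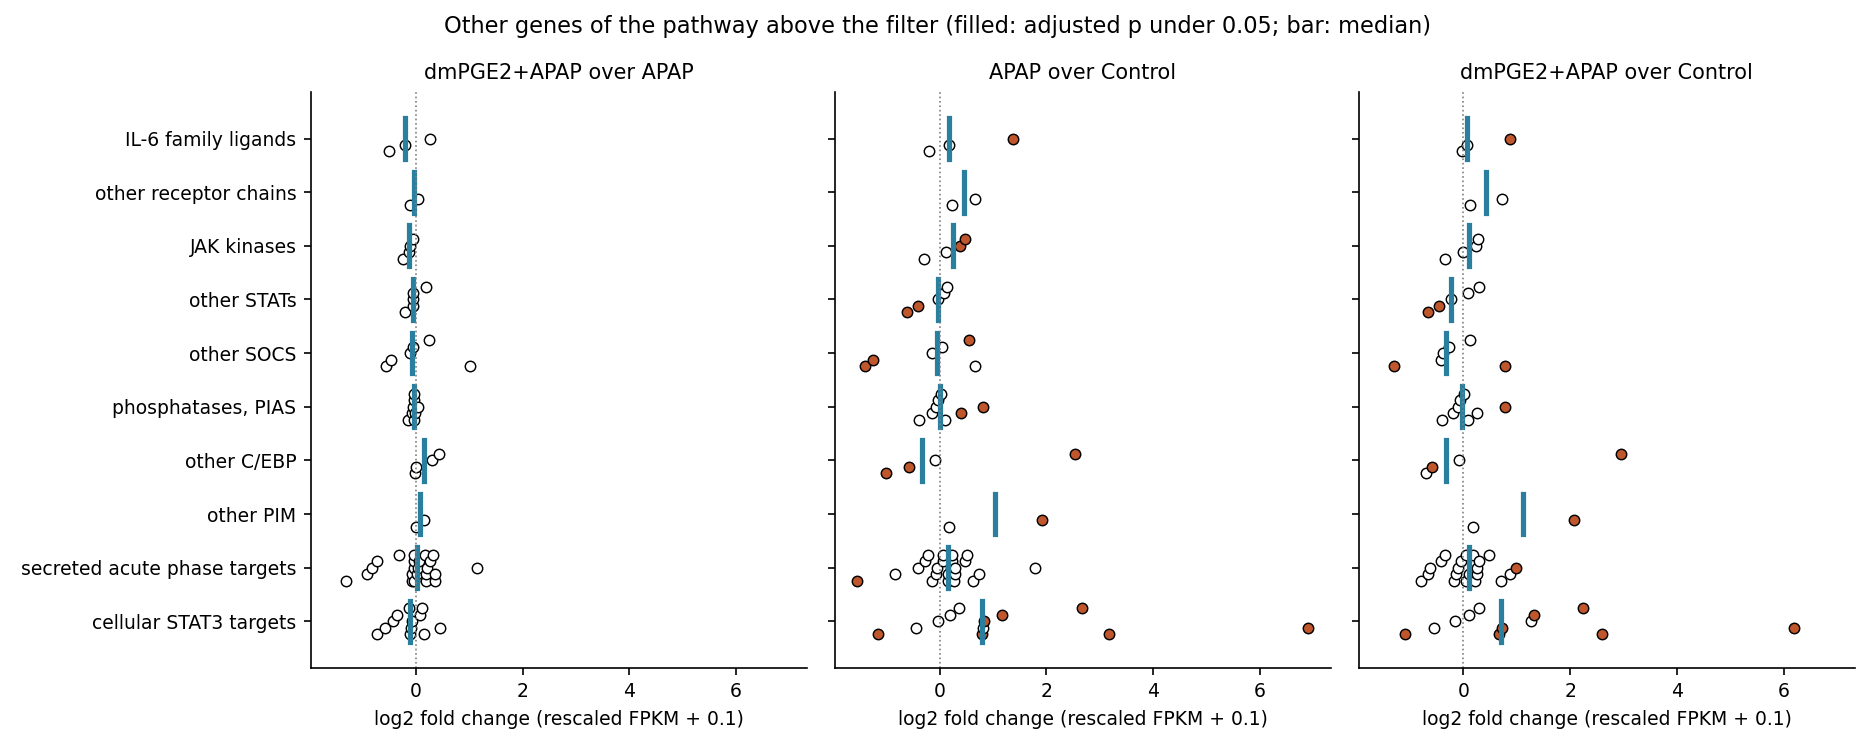
Log2 fold changes of the 69 other pathway genes above the filter, by list, in the 3 comparisons; filled points have a limma adjusted p under 0.05 and bars are list medians. No point is filled for dmPGE2+APAP over APAP, 22 are filled for APAP over Control and 17 for dmPGE2+APAP over Control, with Fos farthest to the right.

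The targets of STAT3 and C/EBP were examined as secreted and cellular lists. Of 23 tested genes for secreted acute phase proteins, 1 rose and 0 fell in dmPGE2+APAP livers over control (median log2 0.11), where 16.3% of all genes were called. In APAP livers 0 rose and 1 fell over control (median 0.15), where 20.9% of all genes were called. The median of all genes was 0.00 in each comparison. Serpina3m, a liver serpin of a cluster of close copies, rose to 393 ± 33.4 FPKM in dmPGE2+APAP livers, against 229 ± 87.3 in control livers (log2 0.98, limma adjusted p = 0.0372), a call lost without control library 3 (log2 0.71, adjusted p = 0.0668). Hamp, which encodes the iron hormone hepcidin, was at 593, 412 and 601 FPKM in dmPGE2+APAP livers, at 203, 259 and 263 in APAP livers and at 740, 600 and 1030 in control livers. It fell in APAP livers to 0.343 of control (log2 -1.54, SE 0.224, adjusted p = 0.00217) and was not called in dmPGE2+APAP livers (log2 -0.41, adjusted p = 0.253). Every dmPGE2+APAP library was above every APAP library for Hamp, with a difference of log2 1.14 (SE 0.224, unadjusted p = 6.58e-04, adjusted p = 0.231).

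The classical acute phase genes varied between libraries of the same group. Saa1, a serum amyloid A gene, was at 29.2, 43.1 and 24.7 FPKM in dmPGE2+APAP livers, at 330, 18.2 and 28.7 in APAP livers and at 254, 17.7 and 19.1 in control livers. APAP library 1 and control library 1 held the high values, and Saa2, a near-identical gene whose reads may be shared with Saa1, was highest in the same 2 libraries at 68.6 and 50.8 FPKM. Lcn2, the iron-binding lipocalin, was at 11.8, 4.69 and 5.2 FPKM in dmPGE2+APAP livers, at 16.4, 10.9 and 11.1 in APAP livers and at 17.7, 2.75 and 1.19 in control livers, and was not called. In control library 1, Socs3 was at 4.79 FPKM, within the range of the other 2 controls, while Saa1 was at 254. Fgg, a fibrinogen chain, was at 1480 ± 84.4 FPKM in dmPGE2+APAP livers, 1290 ± 85.9 in APAP livers and 1650 ± 660 in control livers, and Hp, the haptoglobin gene, at 1500 ± 444 in dmPGE2+APAP livers, 1550 ± 443 in APAP livers and 1550 ± 805 in control livers. Orm2, an orosomucoid gene, was at 2.86 ± 0.262 FPKM in dmPGE2+APAP livers, 4.15 ± 2.63 in APAP livers and 5.92 ± 7.15 in control livers. None of these was called in any comparison.

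Of 12 cellular STAT3 targets, 6 rose and 1 fell against control in each treated group, with a median log2 of 0.70 in dmPGE2+APAP livers and 0.80 in APAP livers. Among all genes, 8.71% rose and 7.57% fell in dmPGE2+APAP livers, and 11.8% rose and 9.08% fell in APAP livers. Many of these genes also answer to other stress signals. Fos was at 76.3, 32.4 and 23.1 FPKM in dmPGE2+APAP livers, at 65, 50.9 and 76.7 in APAP livers and at 0.352, 0.385 and 0.772 in control livers, a rise of log2 6.19 in dmPGE2+APAP livers (limma adjusted p = 7.05e-05) and 6.91 in APAP livers (adjusted p = 3.37e-05). Junb, another AP-1 gene, was at 155, 68.1 and 39.8 FPKM in dmPGE2+APAP livers, at 133, 87.1 and 121 in APAP livers and at 9.69, 13.7 and 18.8 in control livers, a rise of log2 2.60 in dmPGE2+APAP livers (adjusted p = 0.00562) and 3.18 in APAP livers (adjusted p = 0.00181). As for Socs3, dmPGE2+APAP library 1 was the highest of its group and library 3 the lowest for both AP-1 genes. Myc, the growth regulator, was at 5.06 ± 0.841 FPKM in dmPGE2+APAP livers, 6.86 ± 1.46 in APAP livers and 1.2 ± 0.682 in control livers, a rise of log2 2.24 in dmPGE2+APAP livers and 2.66 in APAP livers. Bcl2l1, the gene of the survival protein Bcl-xL, rose by log2 1.32 in dmPGE2+APAP livers and 1.17 in APAP livers. Ccnd1, cyclin D1, fell to 2.05 ± 0.309 FPKM in dmPGE2+APAP livers and 1.94 ± 0.259 in APAP livers, against 5.19 ± 2.39 in control livers (adjusted p = 0.0221 for dmPGE2+APAP and 0.0137 for APAP), and without control library 3, its highest control, the log2 values were -0.76 for dmPGE2+APAP and -0.83 for APAP and remained called. Mcl1 and Il4ra were the other 2 that rose in each group.

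Genes with the most similar pattern over the 9 libraries were found by Pearson correlation of rescaled log2 values among the 11557 tested genes, as a description in which group differences weigh heavily. For Osmr they were Il10 (r = 0.992), Ctla2a (0.982) and Tbk1 (0.982). Il10, the anti-inflammatory cytokine gene, was at 0.695 ± 0.372 FPKM in dmPGE2+APAP livers, 0.901 ± 0.275 in APAP livers and 0.0388 ± 0.0489 in control livers. Il10 passed the filter only because of treated libraries, and its control mean was below the added 0.1. For Cebpb they were Plk3 (0.997), Agt (0.996) and 1810055G02Rik (0.995). Plk3, a stress-responsive kinase gene, was at 110 ± 9.23 FPKM in dmPGE2+APAP livers, 149 ± 26.9 in APAP livers and 14.7 ± 7.97 in control livers. Agt, the angiotensinogen gene, was at 444 ± 17.1 FPKM in dmPGE2+APAP livers, 442 ± 15.7 in APAP livers and 232 ± 39.6 in control livers. For Socs3 they were Map3k8 (0.974) and Mrap (0.968), for Il6ra Adrb1 (0.961), Gdpd1 (0.943) and Cdh4 (0.937), and for Stat3 Ctif (0.962), Cltb (0.954) and Ranbp2 (0.947). Adrb1, a beta adrenergic receptor gene, shared with Il6ra its highest mean in dmPGE2+APAP livers, 0.698 ± 0.124 FPKM, against 0.451 ± 0.0324 in APAP livers and 0.364 ± 0.133 in control livers.

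The lncRNA table gives a second readout of 6 of the genes, with 11 entries of Stat3, 4 of Osmr, 3 of Pim1, 2 of Socs3 and 1 each of Lifr and Cebpd, and none of Il6ra, Il6st, Socs1 or Cebpb. In the GENCODE annotation 14 of the 22 are retained introns, 7 are processed transcripts and 1 is absent. Of these, 20 passed the filter of 0.1 FPKM in at least 3 libraries. In dmPGE2+APAP livers 1 rose over control and none fell, where 1.68% of 22984 transcripts were called, 1.26% higher and 0.413% lower. In APAP livers 3 rose over control and none fell, where 4.23% were called, 3.43% higher and 0.801% lower. Between dmPGE2+APAP and APAP livers limma called 0 of the 20, with 2 at an unadjusted p under 0.05, where 0% of transcripts were called and 1559 had an unadjusted p under 0.05. These entries share sequence with the coding mRNA of the same gene, so reads may have been divided between them in a way that is not known. Many are near or below the added 0.1 FPKM, which makes fitted folds smaller than the ratios of the FPKM.

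Of 10 tested Stat3 entries, 1 rose over control in dmPGE2+APAP livers and 2 in APAP livers. The entries and the mRNA were not compared by a test. Stat3-211, a retained intron from 100905080 to 100905846 and the most abundant Stat3 entry in treated livers, was at 1.15, 0.784 and 0.64 FPKM in dmPGE2+APAP livers, at 1.1, 1.07 and 1.16 in APAP livers and at 0.316, 0.311 and 0.19 in control livers. Treated and control libraries did not overlap, and it rose over control 2.71-fold in dmPGE2+APAP livers (limma adjusted p = 0.0453, and 0.13 without control library 3) and 3.49-fold in APAP livers (adjusted p = 0.0141). Stat3-210, from 100889478 to 100893743, was at 0.7, 0.578 and 0.489 FPKM in dmPGE2+APAP livers, at 0.854, 0.613 and 0.621 in APAP livers and at 0.192, 0.107 and 0.257 in control livers. It rose 2.99-fold in APAP livers (adjusted p = 0.0219), and in dmPGE2+APAP livers its log2 difference from control was 1.38 (adjusted p = 0.0521). Fitted differences of APAP from control were positive for 10 of 10 tested Stat3 entries, with a median log2 of 0.90, where the median of all transcripts was 0.20. Of the 10, 7 had an unadjusted p under 0.05, as did 4549 of all 22984 transcripts. The entries belong to the same gene and some overlap in position, so they are not independent results. For dmPGE2+APAP over control the fitted differences were positive for 8 of 10 (median 0.61, all transcripts 0.12). For dmPGE2+APAP over APAP they were positive for 1 of 10 (median -0.28, all transcripts -0.08). Summed over the 11 entries, Stat3 was at 5.19, 4.11 and 3.68 FPKM in dmPGE2+APAP livers, 6.5, 4.21 and 6.95 in APAP livers and 2.63, 2.42 and 2.33 in control livers, all treated libraries being above all controls.

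**Figure D5:**
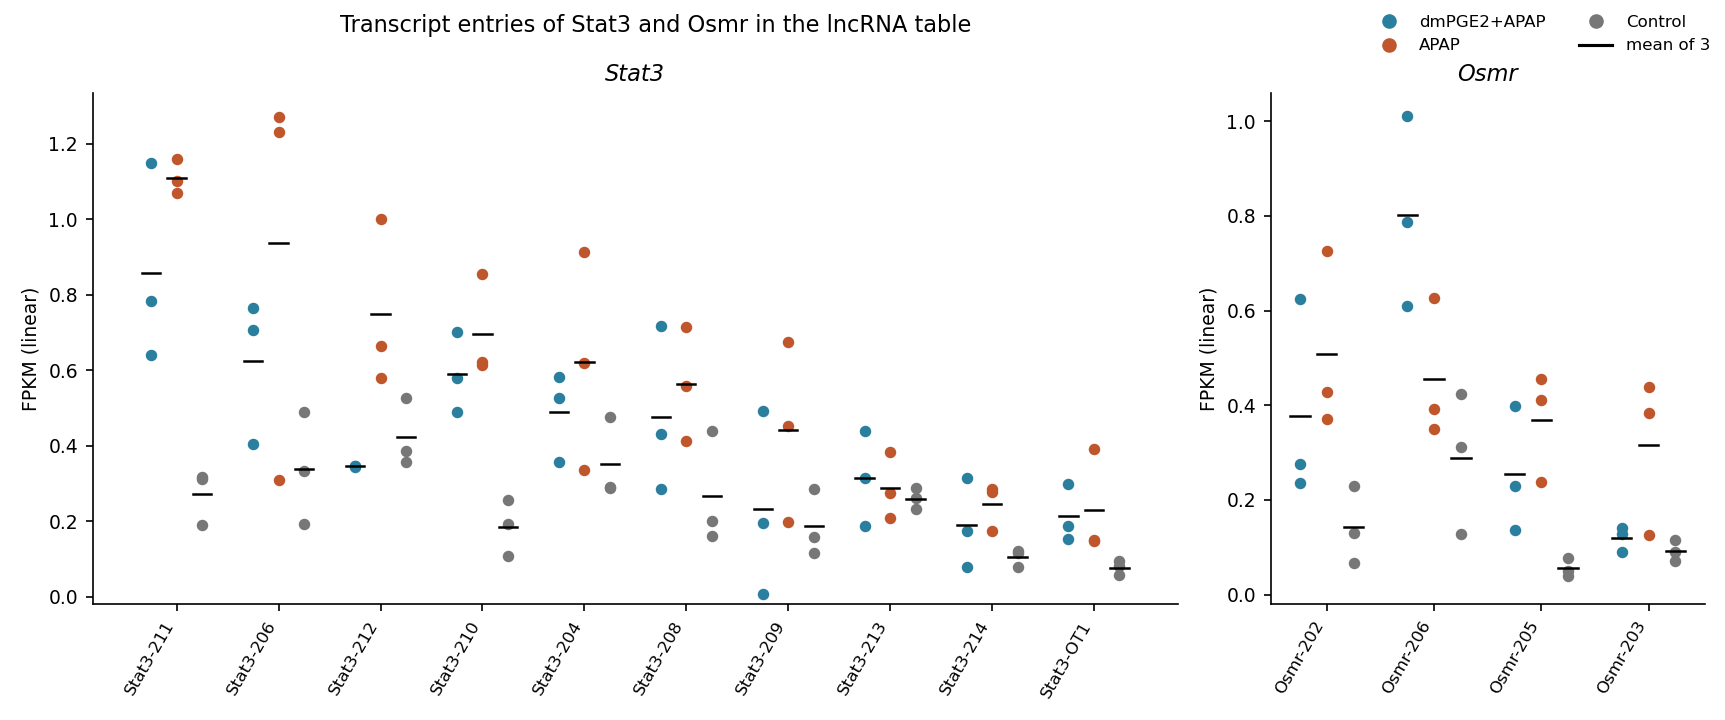
FPKM (linear axes from 0) of the 10 tested Stat3 entries and the 4 Osmr entries of the lncRNA table, 1 point per library, with dmPGE2+APAP left, APAP in the middle and Control right at each entry and bars at the mean of 3. For Stat3-211, Stat3-210 and Osmr-205 all treated points lie above all control points.

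Osmr-205, a retained intron from 6854987 to 6874296, was at 0.399, 0.229 and 0.137 FPKM in dmPGE2+APAP livers, at 0.412, 0.237 and 0.456 in APAP livers and at 0.0503, 0.0767 and 0.039 in control livers. All controls were below the filter of 0.1 FPKM, so Osmr-205 was tested only because treated libraries passed it. Osmr-205 rose 3.07-fold in APAP livers over control (limma adjusted p = 0.0335) and was not called in dmPGE2+APAP livers (log2 1.19, adjusted p = 0.128). Without control library 3 the call in APAP livers was lost (log2 1.54, adjusted p = 0.0978). Osmr-206, the most abundant Osmr entry in dmPGE2+APAP livers, was at 0.804 ± 0.203 FPKM there, 0.456 ± 0.149 in APAP livers and 0.288 ± 0.148 in control livers and was not called. The 4 Osmr entries together were at 1.56 ± 0.544 FPKM in dmPGE2+APAP livers, 1.65 ± 0.455 in APAP livers and 0.577 ± 0.168 in control livers, the same order as the Osmr mRNA. Socs3-202 was at 0.363 ± 0.0217 FPKM in dmPGE2+APAP livers, 0.517 ± 0.218 in APAP livers and 0.329 ± 0.12 in control livers. Lifr-205 was at 0.162 ± 0.197 FPKM in dmPGE2+APAP livers, 0.0451 ± 0.0276 in APAP livers and 0.124 ± 0.0713 in control livers. Cebpd-202 was at 0.326 ± 0.286 FPKM in dmPGE2+APAP livers, 0.199 ± 0.0785 in APAP livers and 0.0213 ± 0.0369 in control livers, and none of the 3 was called. The call counts of these entries depend on single libraries: for APAP over control, 0 entries were called without APAP library 1 or without APAP library 3, 5 without APAP library 2, and 1 without control library 1 or without control library 2. For dmPGE2+APAP over control, leaving out any library other than dmPGE2+APAP library 1 left 0 called.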

How the data were processed

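Total RNA from mouse liver, in 9 samples, was depleted of ribosomal RNA and made into strand-keeping libraries, per the labels' protocols. Per the submitters' processing notes, the tools include HISAT2 and the genome was GRCm38 (mm10). The quantifier, its annotation and its use of strand are not given in the sources used here. FPKM values were used as deposited, per gene for mRNA and per transcript for lncRNA, per the file headers. What was deposited under the name of read counts is a derived score. In the lncRNA table, scores from 1000 upward equal FPKM times genomic span times 60.04 to 78.55, depending on the library, within 1%, so no count test was run. Control columns carry a prefix that the labels do not define and were assigned to the controls because the others name the treated groups. Control library numbers are those of the columns. The miRNA and circular RNA of the series title are not analysed here.

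The deposited FPKM were rescaled per library by a trimmed mean of log ratios without weights, which drops 30% at the ends of the ratios and 5% of the abundances. After adding 0.1, log2 was taken. For mRNA, 11557 genes at 0.5 FPKM or above in 3 or more libraries were kept, and for lncRNA, 22984 transcripts at 0.1 FPKM or above. They were fitted as 3 group means over all 9 libraries in limma 3.58.1 (R 4.3.3) with trend on abundance (residual degrees of freedom 6), two-sided tests and Benjamini-Hochberg adjustment over the whole table at 0.05. The script was tested on simulated data. Group means ± SD are of deposited FPKM. GENCODE and RefSeq on the same build gave positions and sequences.

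The members and gene lists were chosen with earlier results of these data known. Genes named beside the members are a preset list of 20 pathway genes, up to 4 per list and comparison with the largest change among those called, lncRNA entries called in any comparison and the highest per member, and the 3 genes most like each of 5 members. Of the genes this rule selects, 2 are not reported here. Genes overlapping a member were named for their position. Alternatives were other pseudocounts, filters, scalings, samples in the fit and each library left out. Leaving out control library 3 for single pathway genes, overlapping genes and lncRNA entries was chosen after seeing the data.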

Additional observations from a re-analysis of the deposited data

How the results depend on the processing

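Member values under the alternatives kept direction and side of the threshold in 135 of 135 cases for dmPGE2+APAP over APAP, in 112 of 126 for dmPGE2+APAP over control and in 116 of 126 for APAP over control. Some genes not called with all libraries turned direction: for dmPGE2+APAP over control Stat3 to log2 -0.04 with no rescaling and -0.10 without control library 3, and Lifr to 0.01 without dmPGE2+APAP library 1 and 0.49 without control library 3, and for APAP over control Lifr to 0.32 without control library 3. With 1 library left out, Lifr ranged from -0.41 to 0.49 for dmPGE2+APAP over control and from -0.59 to 0.32 for APAP over control, Stat3 from -0.10 to 0.26 for dmPGE2+APAP over control, and Pim1, at 0.00 with all libraries, from -0.25 to 0.39 for dmPGE2+APAP over control. With 1 library left out at a time, 0 to 0 members were called for dmPGE2+APAP over APAP, 3 to 4 for dmPGE2+APAP over control and 3 to 4 for APAP over control. Pathway genes called ranged from 0 to 0, from 13 to 20 and from 16 to 24 in the same order, and lncRNA entries from 0 to 0, from 0 to 1 and from 0 to 5. The single lncRNA entry called for dmPGE2+APAP over control became 0 with no rescaling, a pseudocount of 1, no filter, only the 2 groups compared or no abundance trend. Over all genes, 34 were called for dmPGE2+APAP over APAP without dmPGE2+APAP library 1 and 2 with only those groups in the fit. For dmPGE2+APAP over control 1015 were called without dmPGE2+APAP library 2, 1129 without its library 3 and 1177 without control library 2, and for APAP over control 1532 without APAP library 3. In single pathway genes, leaving out control library 3 also brought Bcl6 (log2 2.33 for dmPGE2+APAP, 1.88 for APAP), Socs6 (1.15 for APAP) and Apcs (-1.08 for APAP) past the threshold against control. The causes were not tested. Deviations of same-numbered dmPGE2+APAP and APAP libraries from their group means had r of 0.022, 0.024 and -0.117. Those of differently numbered libraries had r from -0.154 to 0.149. With 3 libraries per group these values cannot decide whether same-numbered libraries were paired. With the replicate number as a block 0 members were called. No block was possible with the controls, whose column numbers the labels do not define. Genes under 0.5 FPKM, such as Socs1, Il6 and Osm, are limited by unknown depth.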

Other observations

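The processed transcript Pim1-205, from 29492196 to 29495442 on chromosome 17, was at 4.03, 0 and 0 FPKM in dmPGE2+APAP livers, at 0, 0 and 0 in APAP livers and at 0.185, 0 and 6.09 in control livers. It was listed at 0 in 6 of the 9 libraries and was the most abundant of all 22 lncRNA entries of these genes in the 2 libraries with high values. Control library 3, where it was highest, also held the highest Pim1 and Lifr mRNA of the study and the highest Cebpg of its group. Across the 9 tested members, dmPGE2+APAP library 1 was the highest of its group for 6, APAP library 2 the lowest of its group for 6 and control library 3 the lowest of its group for 6. These are the largest such counts, picked after they were seen. In their groups, dmPGE2+APAP library 3 was the lowest for 5, and APAP library 3 and control library 1 were the highest for 5 each. The same counts were not made over all genes.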
